A study of Mus musculus with 18 samples.

Results

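Transcripts of 7 genes that set or restore the electrical state of the muscle fiber membrane were followed in RNA-seq libraries of mouse skeletal muscle. They were Atp1b1, Atp1b2 and Fxyd1 of the sodium pump, and the ion channel genes Clcn1, Scn4a, Kcnj2 and Kcnj11. The members are the rows of the deposited table that carry these names, 7 of 46983 genes, and all 7 passed the filter on low values (at least 0.5 TPM in at least 4 of 18 libraries). Levels are TPM, in which reads are scaled by gene length and by the library's total.

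The 18 libraries fall into 4 groups: 5 fasted and 5 fed MKO mice, and 4 fasted and 4 fed WT mice. MKO mice lack PGC-1β, a transcriptional coactivator of mitochondrial genes encoded by Ppargc1b, in skeletal muscle only. Cre under the human skeletal actin promoter removes exons 4 to 6 of a floxed Ppargc1b allele in muscle fibers, so other cells of the tissue keep the gene. WT mice carried the floxed allele without Cre, and the animals were adult males given as strain C57Bl6/J. Fasting lasted 24 h. The muscle is quadriceps in the labels but Gastrocnemius in the study's text. Replicates are biological by their labels.

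An action potential in a muscle fiber is carried by the voltage-gated sodium channel encoded by Scn4a, and the fiber returns to rest through potassium channels and the chloride channel ClC-1, encoded by Clcn1. ClC-1 provides most of the resting conductance of muscle fibers, and its loss causes myotonia. The sodium pump then restores the gradients of sodium and potassium. It is built from a catalytic alpha and an accessory beta subunit, and FXYD proteins such as phospholemman (Fxyd1) adjust its activity. Kir2.1 (Kcnj2) holds the resting potential near that of potassium, while Kir6.2 (Kcnj11) is the pore of the ATP-sensitive potassium channel that links excitability to the energy state.

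Clcn1 and Kcnj2 are shown by sequence because they moved in opposite directions with fasting, though the rise of Kcnj2 passed the test in MKO mice only. The promoter stretches are the 250 bases before the annotated start in RefSeq (GRCm38.p6), with matches to the motifs searched in capitals. Windows were given for 5 of the 7 genes (Atp1b1, Clcn1, Fxyd1, Kcnj2, Scn4a).
Clcn1, chr6:42286435-42286684, plus strand: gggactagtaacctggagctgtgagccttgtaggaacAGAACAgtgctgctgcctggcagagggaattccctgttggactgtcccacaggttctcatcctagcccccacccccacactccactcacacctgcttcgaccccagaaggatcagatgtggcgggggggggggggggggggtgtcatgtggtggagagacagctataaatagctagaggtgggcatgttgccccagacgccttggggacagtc
Kcnj2, chr11:111065914-111066163, plus strand: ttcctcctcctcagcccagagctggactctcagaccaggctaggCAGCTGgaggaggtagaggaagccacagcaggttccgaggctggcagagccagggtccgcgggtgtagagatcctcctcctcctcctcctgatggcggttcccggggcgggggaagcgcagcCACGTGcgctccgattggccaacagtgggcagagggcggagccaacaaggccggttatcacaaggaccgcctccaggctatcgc
Both strands of the 300-base windows (250 bases before and 50 after the start) were searched for 6 motifs: the estrogen-related receptor element TCAAGGTCA, the nuclear receptor hexamer AGGTCA that it contains, the FoxO site GTAAACA, the glucocorticoid receptor hexamer AGAACA, the myogenic E-box CAGCTG and the clock E-box CACGTG. The Clcn1 window held AGAACA, starting at position -213 from the start site, as did 19.0% of all 32851 windows. The Kcnj2 window held CAGCTG at -206 and CACGTG at -84, letters found in 16.3% and 7.15% of all windows. None of the 6 motifs was found in the windows of Atp1b1, Fxyd1 or Scn4a, and the shares over all windows were 0.423% for TCAAGGTCA, 16.3% for AGGTCA and 3.65% for GTAAACA.

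Several facts of the libraries bear on every value below. Genes of the mitochondrial genome took 61.5% to 67.9% of TPM in fasted MKO libraries and 70.8% to 81.3% in fasted WT libraries. In fed mice they took 67.4% to 70.4% in MKO and 74.3% to 75.0% in WT. TPM of all other genes share what is left. Over all 12111 genes tested, the median log2 change of MKO against WT was 0.31 in fasted and 0.25 in fed mice. Each change is therefore given as deposited and also relative to the median gene of each library. WT fasted replicate 4 stood apart, with 81.3% mitochondrial TPM, the lowest summed TPM of 9 fast-fiber genes (18167, against 36714 to 44446 in the other WT fasted libraries) and the highest of 8 slow-fiber genes (620). Ppargc1b itself had 0.422 to 1.11 TPM in fasted MKO and 0.726 to 1.47 TPM in fasted WT, and 1.76 to 2.35 TPM in fed MKO and 1.45 to 2.05 TPM in fed WT. These ranges overlap, and since the row sums reads over the whole gene and not over the removed exons alone, it does not check the genotype labels. All 5 defining genes of skeletal muscle fibers were present, with summed TPM of 40419 to 52522 in fasted MKO, 20287 to 33030 in fasted WT, 34249 to 39334 in fed MKO and 30304 to 33779 in fed WT.

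Over the 18 libraries, Scn4a (mean 108 TPM), Atp1b2 (104 TPM) and Fxyd1 (90.4 TPM) had the highest levels, and Kcnj11 averaged 58.1 TPM. Clcn1 (33.7 TPM), Atp1b1 (33.3 TPM) and Kcnj2 (16.1 TPM) were lower. All stood in the upper part of the genes tested, between the 82.0th percentile for Kcnj2 and the 97.4th for Scn4a. Fxyd1 varied least, with a highest value 1.72 times its lowest, and Atp1b1 varied most, at 5.49 times.

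**Figure D1:**
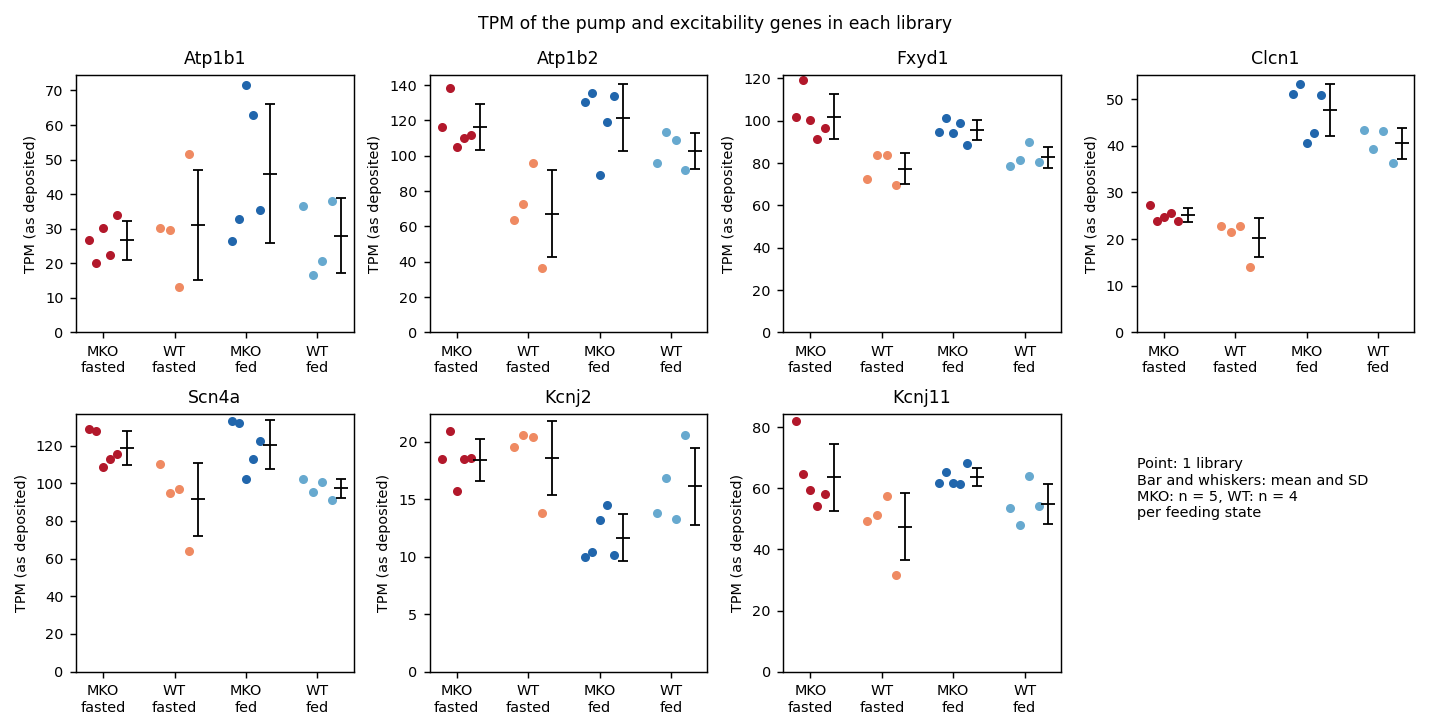
TPM as deposited (y axis, from 0) of the 7 genes in each library, by group (x axis), where each point is a library, and the bar with whiskers is the mean and SD (n = 5 MKO, n = 4 WT per feeding state). Clcn1 sits between 14.0 and 27.3 TPM in all 9 fasted libraries and between 36.3 and 53.3 TPM in all 9 fed ones, and Atp1b1 spreads widely within groups.

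Clcn1 was the member that changed most with fasting. Its TPM were 27.3, 23.8, 24.8, 25.7 and 23.9 in fasted MKO libraries, against 51.0, 53.3, 40.6, 42.7 and 50.8 in fed MKO libraries. In WT they were 22.7, 21.5, 22.9 and 14.0 after fasting, against 43.4, 39.4, 43.1 and 36.3 in fed mice. No fasted library reached the level of any fed library in either genotype, and WT fasted replicate 4 was the lowest of all. Bulk RNA cannot tell fewer cells of a type from less RNA per cell. The fold was 0.53 in MKO (log2 change -0.92, SE 0.12, limma adjusted p = 1.14e-05) and 0.49 in WT (log2 change -1.02, SE 0.13, limma adjusted p = 1.15e-05). Lower calls made up 15.8% of all genes tested in MKO and 20.7% in WT, and non-overlapping lower genes 12.8% and 17.9%. Set against the median gene, the log2 changes were -0.97 in MKO (limma adjusted p = 1.41e-07) and -1.02 in WT (limma adjusted p = 2.68e-07), where lower calls were 22.7% and 24.6% of genes. Leaving out any of the 18 libraries kept the log2 change between -0.97 and -0.87 in MKO and between -1.09 and -0.85 in WT, as deposited. The difference between genotypes in this response was 0.10 on the log2 scale (95% interval -0.27 to 0.48, limma adjusted p = 0.913).

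Between genotypes, Clcn1 depended on the scale. As deposited it was higher in MKO than in WT after fasting, with a log2 change of 0.33 (SE 0.13, limma adjusted p = 0.0462), close to the median of all genes. Relative to the median gene, Clcn1 stood at 5.66 ± 0.50 times in fasted MKO (SD, n = 5) and 5.65 ± 0.48 times in fasted WT (SD, n = 4). The corresponding levels in fed mice were 11.2 ± 1.4 times in MKO (SD, n = 5) and 11.5 ± 0.9 times in WT (SD, n = 4). The log2 changes on that scale were 0.01 (95% interval -0.19 to 0.21) in fasted and -0.04 (-0.24 to 0.15) in fed mice, so no genotype difference was found in either state. The call as deposited was lost in 14 of the 18 fits that left out a library (without WT fasted replicate 4 the change was 0.16, limma adjusted p = 0.196). Of the exonic bases of Clcn1, 8.2% lie opposite exons of Fam131b, and whether counting used strand is not given. Fam131b had at most 0.488 TPM in any library.

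Kcnj2 moved in the other direction with fasting, and this passed the test in MKO mice only. It had 18.5, 20.9, 15.7, 18.5 and 18.6 TPM in fasted MKO libraries, against 10.01, 10.4, 13.2, 14.5 and 10.2 TPM in fed MKO libraries. WT values were 19.6, 20.6, 20.4 and 13.8 TPM after fasting, against 13.8, 16.8, 13.3 and 20.6 TPM in fed mice. The MKO groups do not overlap (as for 17.2% of genes, higher with fasting), whereas the WT groups do, since fed replicate 4 lies among the fasted values and fasted replicate 4 among the fed ones. The fold in MKO was 1.59 (log2 change 0.67, SE 0.14, limma adjusted p = 0.00136), in a comparison where higher calls were 18.1% of genes. Against the median gene the log2 change was 0.62 (limma adjusted p = 0.000647), where higher calls were 20.2%. In WT the log2 change was 0.21 (95% interval -0.12 to 0.54, limma adjusted p = 0.327). Without WT fasted replicate 4 it was 0.34 (limma adjusted p = 0.0709). The difference between the MKO and WT responses over all 18 libraries, 0.46 (95% interval 0.02 to 0.91), did not pass the test (limma adjusted p = 0.532), so a response particular to MKO was not shown.

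The lower fed level of Kcnj2 in MKO was also the clearest genotype difference relative to the median gene. The same fed MKO libraries enter this comparison and the rise with fasting in MKO, so these results are not independent. Fed MKO libraries stood at 2.43, 2.49, 3.16, 3.39 and 2.20 times the median gene, against 3.80, 4.94, 3.79 and 5.81 times in fed WT libraries. Every fed MKO library was below every fed WT library. On this scale Kcnj2 fell by 0.73 in log2 units (fold 0.60, SE 0.13, limma adjusted p = 0.00796) and was the only member called. On it 1.1% of all genes tested were called, 0.809% lower, and 4.33% were lower with no overlap. As deposited, the same comparison gave a log2 change of -0.46 (SE 0.15, limma adjusted p = 0.0636). In fasted mice the levels were 4.03, 4.38, 3.71, 4.49 and 4.12 times the median gene in MKO, against 4.89, 5.51, 5.49 and 4.93 times in WT. These groups do not overlap either, but the log2 change of -0.32 did not pass the test (SE 0.13, limma adjusted p = 0.165), and non-overlapping lower genes were 3.6% of all. As deposited the fasted genotypes did not separate (log2 change -0.0004, 95% interval -0.32 to 0.31).

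**Figure D2:**
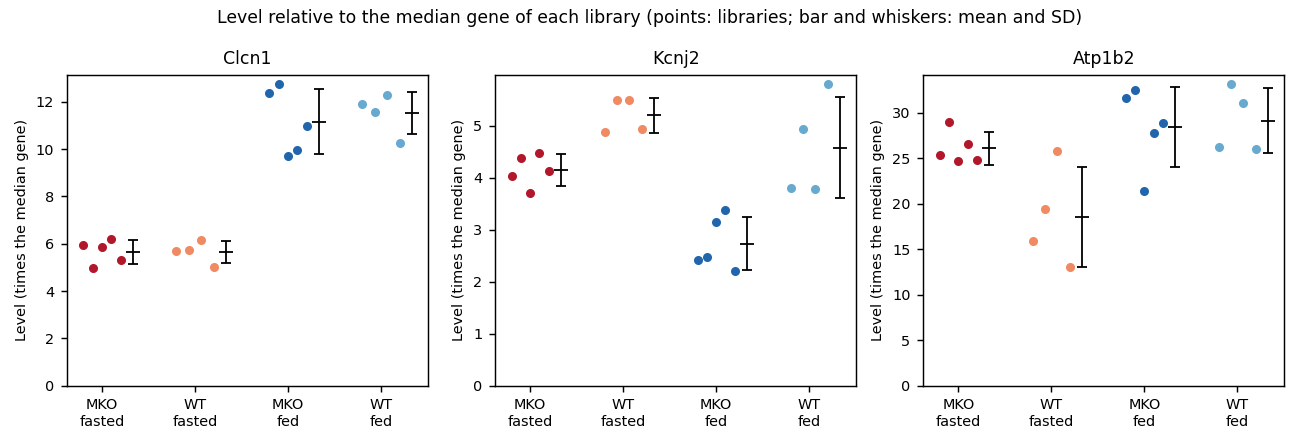
Level of Clcn1, Kcnj2 and Atp1b2 as a multiple of the median gene of the same library (y axis, from 0), by group (x axis), with points for libraries and bar and whiskers the mean and SD (n = 5 MKO, n = 4 WT). Kcnj2 averages 2.73 in fed MKO and 4.59 in fed WT, and Clcn1 averages 5.66 in fasted MKO and 5.65 in fasted WT.

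Kcnj11 and Scn4a showed no response to fasting that passed the test in all 18 libraries. Scn4a had 129, 128, 109, 113 and 116 TPM in fasted MKO libraries, against 110.0, 94.6, 96.8 and 64.3 TPM in fasted WT libraries. It had 133, 132, 103, 113 and 122 TPM in fed MKO, against 102, 95.1, 101 and 91.0 TPM in fed WT. The fed genotypes do not overlap, as for 26.8% of genes, higher in MKO, and in the fasted ones WT replicate 1 lies within the MKO range. As deposited Scn4a was higher in fasted MKO by 0.40 on the log2 scale (SE 0.12, limma adjusted p = 0.0175), a call lost without WT fasted replicate 4 (0.24, limma adjusted p = 0.0573). When set against the median gene, the genotype changes were 0.08 in fasted (95% interval -0.09 to 0.25) and 0.03 in fed mice (95% interval -0.14 to 0.20). The log2 changes with fasting were -0.02 in MKO and -0.11 in WT, as deposited.

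Kcnj11 gave a similar picture. Its TPM were 81.9, 64.6, 59.5, 54.1 and 58.1 in fasted MKO libraries and 49.5, 51.2, 57.6 and 31.7 in fasted WT libraries. Fed values were 61.8, 65.2, 61.7, 61.6 and 68.2 TPM in MKO and 53.5, 47.8, 63.9 and 54.3 TPM in WT. With fasting the log2 change in WT relative to the median gene was -0.24 (limma adjusted p = 0.0828), and it was called in 2 of the 18 fits that left out a library (limma adjusted p = 0.0443 without MKO fasted replicate 1 and 0.0269 without WT fasted replicate 3). As deposited the groups overlap in each comparison, MKO fasted replicate 1 being the highest and WT fasted replicate 4 the lowest of all libraries. The higher level in fasted MKO as deposited (log2 change 0.44, SE 0.15, limma adjusted p = 0.0239) was lost without either of those libraries (0.34, limma adjusted p = 0.0661, without the MKO library and 0.26, limma adjusted p = 0.103, without the WT one), and relative to the median gene it was 0.12 (95% interval -0.10 to 0.34). The ratio of Kcnj11 to Kcnj2 TPM was 3.47 ± 0.63 in fasted MKO and 5.62 ± 1.08 in fed MKO (SD, n = 5 each). In WT it was 2.53 ± 0.22 after fasting and 3.54 ± 1.0 in fed mice (SD, n = 4 each). This ratio was not tested.

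The beta subunits of the pump behaved differently from each other. Atp1b2 encodes the beta2 subunit, which dominates in fast glycolytic fibers of rodents. It had 116, 138.5, 105, 110 and 112 TPM in fasted MKO libraries, against 63.7, 72.6, 95.8 and 36.4 TPM in fasted WT libraries. Fed libraries had 131, 136, 89.3, 119 and 134 TPM in MKO, against 95.6, 113, 109 and 92.1 TPM in WT. The fasted genotypes do not overlap, and the 3 lowest values of all libraries are those of fasted WT replicates 1, 2 and 4.

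As deposited Atp1b2 was 1.82-fold higher in fasted MKO than in fasted WT (log2 change 0.87, SE 0.19, limma adjusted p = 0.00313). It was 1 of 5 members called higher in that comparison, with Fxyd1, Clcn1, Scn4a and Kcnj11, and none was called lower. Higher calls made up 38.9% of all genes tested there and non-overlapping higher genes 22.6%. The median change of the members was 0.40, against 0.31 over all genes. On TPM recomputed without mitochondrial genes the log2 changes of Clcn1 (-0.12), Fxyd1 (-0.057), Scn4a (-0.053) and Kcnj11 (-0.013) had the opposite sign, with no call for any of these 4. On that scale Atp1b2 was at 0.41 (limma adjusted p = 0.0808) and Kcnj2 was called lower in fasted MKO (-0.45, limma adjusted p = 0.0471). Against the median gene Atp1b2 was the only member called (log2 change 0.55, SE 0.16, limma adjusted p = 0.0487), where 2.64% of genes were called higher, and this call was lost in 16 of the 18 fits that left out a library (limma adjusted p up to 0.121). Without WT fasted replicate 4 the change was 0.39, and in the other fits that lost the call it stayed between 0.49 and 0.58. Fed mice gave a log2 change of 0.24 as deposited (limma adjusted p = 0.341) and -0.04 relative to the median gene (95% interval -0.36 to 0.29).

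With fasting, Atp1b2 fell in WT by 0.69 on the log2 scale (fold 0.62, SE 0.20, limma adjusted p = 0.0123). Without WT fasted replicate 4 the change was -0.42 (limma adjusted p = 0.0283). Relative to the median gene the change was -0.69 (limma adjusted p = 0.00221), and fasted and fed WT libraries did not overlap, as in 20.3% of genes lower with fasting. In MKO the log2 change was -0.06 (95% interval -0.44 to 0.32, limma adjusted p = 0.839). The difference between the genotypes in this response was 0.63 (95% interval 0.06 to 1.20) and did not pass the test over all genes (limma adjusted p = 0.504). None of the 7 members was called in limma's test of this difference on either scale, where 0.033% of all genes were called as deposited and 0.116% relative to the median gene. At an unadjusted p under 0.05 there were 2 members on each scale, Atp1b2 and Kcnj2, against 9.11% of all genes as deposited and 11.5% relative to the median gene. Of the 9 fast-fiber genes, Pvalb, which encodes the calcium buffer parvalbumin, was the only one called with fasting in WT (log2 change -0.71, limma adjusted p = 0.00865). The other 8 had log2 changes of -0.36 (Tnnc2) to 0.93 (Myh1), 5 of them above 0. In fasted WT libraries, Atp1b2 of 95.8, 72.6, 63.7 and 36.4 TPM went with summed slow-fiber TPM of 67.7, 152, 348 and 620. In fed WT, 92.1 and 95.6 TPM went with sums of 353 and 342, and 109 and 113 TPM with 153 each. In fed MKO the lowest values, 89.3 and 119 TPM, had the highest sums, 324 and 508. Fasted MKO libraries did not follow this order. The part of fiber type in the change of Atp1b2 was not tested.

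Atp1b1, the beta1 subunit gene, has been linked to slow oxidative fibers in rodents. Its TPM were 26.7, 20.0, 30.3, 22.3 and 33.9 in fasted MKO libraries and 30.3, 29.6, 13.1 and 51.7 in fasted WT libraries. In fed mice they were 26.3, 32.9, 71.7, 63.0 and 35.3 in MKO and 36.5, 16.6, 20.8 and 38.1 in WT. All groups overlap, and single libraries stand high or low within each of them. The highest SE of the members, 0.35 for genotype, goes with this spread. Its log2 change between fed genotypes was 0.69 (95% interval -0.04 to 1.41, limma adjusted p = 0.152) and between fasted ones -0.09 (95% interval -0.82 to 0.63, limma adjusted p = 0.839), as deposited. With fasting it was -0.70 in MKO (limma adjusted p = 0.107) and 0.08 in WT (limma adjusted p = 0.88). A fit of the MKO groups alone called the change in MKO (limma adjusted p = 0.0416).

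Levels of Atp1b1 were set beside the summed TPM of 8 slow-fiber genes. Among fasted WT mice the library with 51.7 TPM of Atp1b1 had a slow-fiber sum of 620 TPM, and the one with 13.1 TPM had the lowest sum, 67.7 TPM. Among fed MKO mice the libraries with 71.7 and 63.0 TPM had sums of 324 and 508 TPM, the highest of their group though in reverse order (170.2 to 231 TPM in the others). Among fed WT mice the libraries with 38.1 and 36.5 TPM had sums of 353 and 342 TPM, and both others were at 153 TPM. Fasted MKO mice did not follow this order, since the library with the lowest Atp1b1, 20.0 TPM, had the second-highest sum, 352 TPM. No correlation was computed between these values. Of the summed beta subunit TPM (Atp1b1, Atp1b2 and Atp1b3), Atp1b1 made up 16.99% ± 3.87 in fasted MKO (SD, n = 5) and 29.4% ± 17.4 in fasted WT (SD, n = 4). In fed mice the share was 24.9% ± 10.8 in MKO (SD, n = 5) and 19.5% ± 7.5 in WT (SD, n = 4). WT fasted replicate 4 alone was at 52.7%, and without it the fasted WT mean was 21.6%. Exons of Nme7 on the opposite strand cover 18.7% of the exonic bases of Atp1b1, and Nme7 had at most 0.442 TPM.

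**Figure D3:**
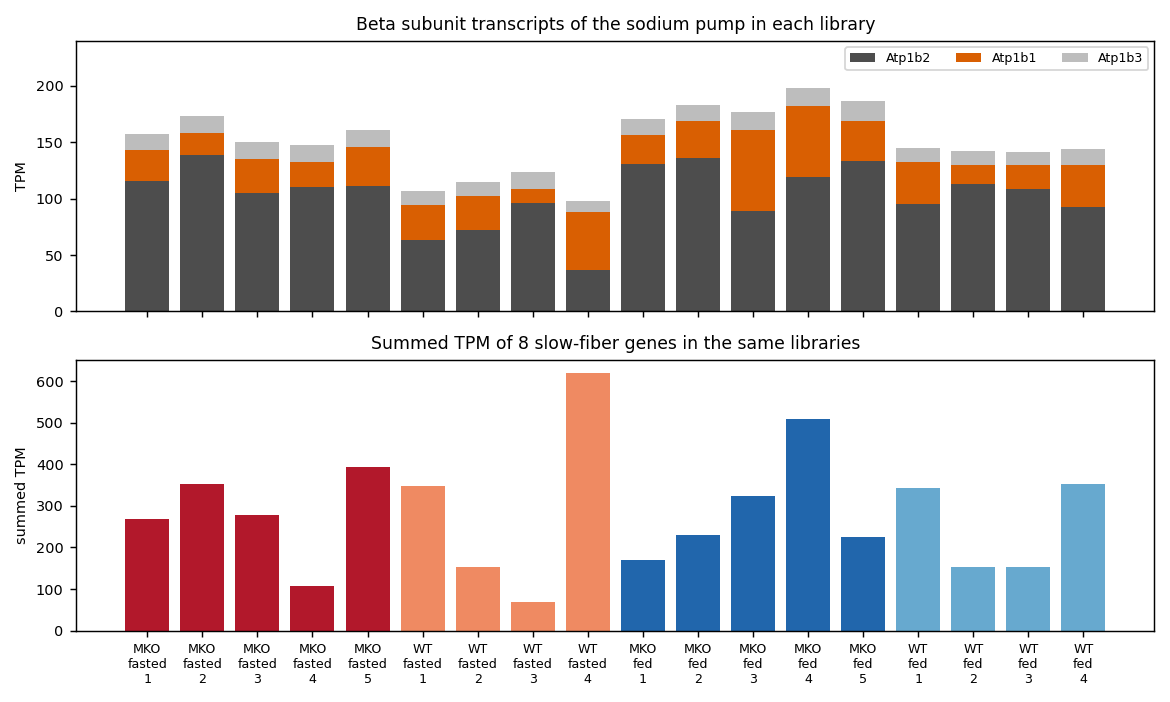
Upper panel: TPM of the beta subunit genes Atp1b2, Atp1b1 and Atp1b3, stacked, in each of the 18 libraries (x axis, group and replicate). Lower panel: summed TPM of 8 slow-fiber genes in the same libraries, where WT fasted replicate 4 has the highest sum, 620 TPM, and the highest Atp1b1 share, 52.7%.

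Fxyd1 was the steadiest member. It had 102, 119, 100.2, 91.2 and 96.8 TPM in fasted MKO libraries, against 72.6, 83.8, 83.6 and 69.5 TPM in fasted WT libraries. Fed libraries had 94.5, 101, 94.4, 98.9 and 88.6 TPM in MKO, against 78.6, 81.4, 89.8 and 80.7 TPM in WT. Fasted MKO and WT do not overlap, as for 22.6% of genes, higher in MKO, while in fed mice WT replicate 3 lies within the MKO range. The log2 change in fasted mice was 0.40 as deposited (SE 0.09, limma adjusted p = 0.0034), where higher calls were 38.9% of genes. This call was kept when any of the 18 libraries was left out. Relative to the median gene the change was 0.08 (95% interval -0.11 to 0.26, limma adjusted p = 0.682). With fasting Fxyd1 changed by 0.09 in MKO (95% interval -0.09 to 0.26) and by -0.10 in WT (95% interval -0.29 to 0.10).

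In fed mice no member was called between genotypes as deposited, where limma called 5.05% of all genes. At an unadjusted p under 0.05 there were 3 of 7 members, Fxyd1, Scn4a and Kcnj2, and 36.7% of all genes. Without WT fasted replicate 4, which is in neither fed group but enters the shared estimate of the spread, Fxyd1, Clcn1, Scn4a and Kcnj2 were called, Kcnj2 lower and the others higher (limma adjusted p between 0.015 and 0.0458). That fit called 33.4% of all genes, 32.8% higher and 0.62% lower.

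**Figure D4:**
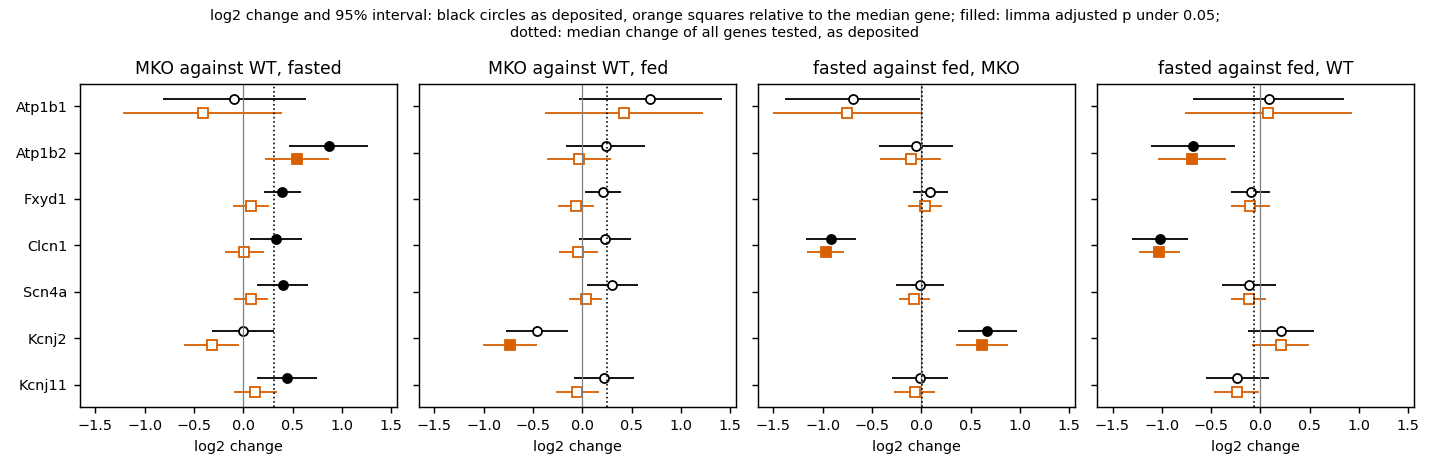
log2 change (x axis) of the 7 genes in 4 comparisons, with 95% intervals from limma, where black circles are TPM as deposited, orange squares are relative to the median gene, filled symbols have an adjusted p under 0.05, and the dotted line is the median change of all genes as deposited. Between fasted genotypes 5 members are filled as deposited and 1 relative to the median gene.

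Beyond the 7 members, 89 genes of the sodium pump, sodium channels, inward rectifier and ATP-sensitive channels, other potassium channels, and chloride channels with cation transporters were listed, and 49 of them were tested. With fasting, as deposited, 10 rose and 10 fell in MKO and 8 rose and 12 fell in WT, out of 49, where 33.8% and 35.9% of all genes were called. The median log2 change of the 49 was -0.06 in MKO, against 0.01 over all genes, and -0.05 in WT, against -0.06 over all genes. Relative to the median gene, 19 of the genes were called in both genotypes, 9 higher and 10 lower in each. Of all genes tested, 31.4% were called in the same direction in both genotypes, 15.4% higher and 16% lower.

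Among potassium channels, Kcng4, a silent voltage-gated subunit, fell most. It had 2.79 ± 0.46 TPM in fasted and 12.4 ± 2.1 TPM in fed MKO (SD, n = 5 each), and the log2 change was -2.11 (limma adjusted p = 2.14e-09). In WT it had 2.73 ± 0.21 TPM after fasting and 12.4 ± 2.3 TPM in fed mice (SD, n = 4 each), a log2 change of -2.13 (limma adjusted p = 5.56e-09). Kcnc1 (Kv3.1) fell by 1.35 in MKO and by 1.09 in WT on the log2 scale, and the small-conductance calcium-activated channel Kcnn2 by 1.42 and by 1.18. Kcnn2 was below 1 TPM throughout. In the other direction, the leak potassium channel gene Kcnk5 rose by 1.65 in MKO and by 0.95 in WT, with a level between 0.193 and 3.84 TPM, and Kcna5 (Kv1.5) rose by 0.90 in MKO. All of these were called by limma both as deposited and relative to the median gene (adjusted p up to 0.0336). In WT, Kcna5 had 2.47 ± 0.80 TPM after fasting and 1.57 ± 0.35 TPM in fed mice (SD, n = 4 each). There it was called higher relative to the median gene but not as deposited.

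Among the other beta subunit genes, Atp1b3 had a log2 change with fasting of -0.07 in MKO and -0.06 in WT, with no call. Atp1b4, whose product is found in the nuclear membrane of muscle in mammals, rose in WT (log2 change 0.85, limma adjusted p = 0.00646), with no call in MKO and none for the difference between genotypes.

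Partners of the other members moved less evenly. Scn4b, an accessory subunit of sodium channels, had a log2 change with fasting of -0.13 in MKO and -0.22 in WT, with no call. Kcnj12 (Kir2.2) fell in WT by 0.53 (limma adjusted p = 0.0187) and had a log2 change of -0.17 in MKO (limma adjusted p = 0.412). The difference between genotypes in this response was not called on either scale. The sulfonylurea receptor genes Abcc8 (0.366 to 2.49 TPM) and Abcc9 (24.1 to 53.5 TPM), and Kcnj8 (3.17 to 5.72 TPM), which encodes Kir6.1, were not called with fasting. Of the transporters, the sodium-potassium-chloride cotransporter gene Slc12a2 rose by 1.22 in MKO and by 1.19 in WT (limma adjusted p = 0.000371 and 0.00103).

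**Figure D5:**
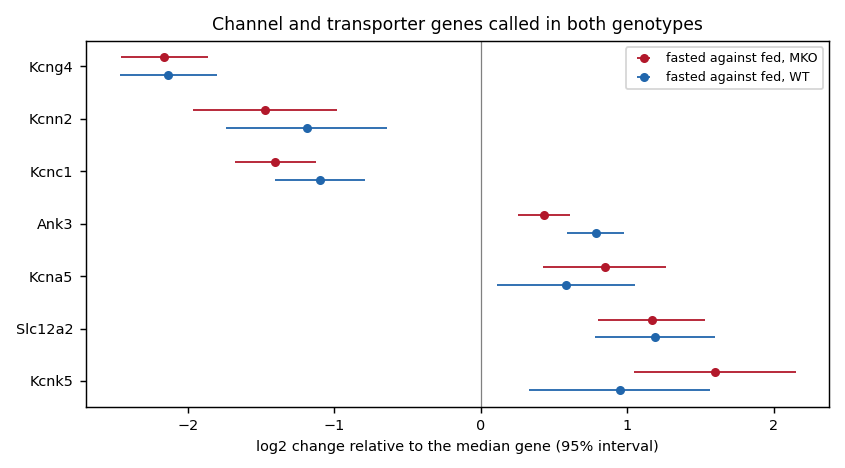
log2 change with fasting relative to the median gene (x axis, 95% intervals from limma) of 7 of the 19 listed genes called in both genotypes (y axis), MKO in red and WT in blue, the 7 being those named in the text. The 3 genes that fell include Kcng4 at -2.16 in MKO and -2.13 in WT, and the 4 that rose include Slc12a2 at 1.17 in MKO and 1.19 in WT.

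Between genotypes the listed genes largely followed the shift of the whole table. Of the 49, fasted MKO mice had 16 called higher and 1 called lower as deposited, where 39.4% of all genes were called, and 2 were higher and 3 lower relative to the median gene, where 5.19% were. Scn3b, an accessory sodium channel subunit, was low, with 1.08 to 1.45 TPM in fasted MKO and 0.44 to 0.75 TPM in fasted WT. It was higher in MKO on both scales (log2 change 0.99 as deposited and 0.67 relative to the median gene, limma adjusted p = 0.00153 and 0.0466). Kcnq5, a voltage-gated potassium channel gene, was lower on both (-0.40 and -0.72, limma adjusted p = 0.0222 and 0.0107). Clcn4 and Ank3 were the others called lower in MKO relative to the median gene. In fed mice 5 of the 49 were higher in MKO as deposited, among them Scn3b, Atp1b4 and Kcnc1, where 4.87% of all genes were called higher. Relative to the median gene 2 were lower (Clcn3 and Clcn4), where 0.809% of all genes were, and none was called on both scales. These fed genes and the Clcn4 and Ank3 calls were named after their values were seen. Genes that mark denervated fibers had a summed TPM, as deposited, of 7.11 to 15.7 in fasted MKO and 5.71 to 8.55 in fasted WT. In fed mice the sums were 8.62 to 13.1 in MKO and 5.97 to 6.95 in WT. These fed ranges do not overlap, on a scale where 26.8% of single genes were higher in fed MKO without overlap. Of the denervation genes, 4 of 6 averaged at least 0.5 TPM in fasted and 3 of 6 in fed groups, and their part in the genotype values was not tested.

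For each member, the genes with the most similar pattern over the 18 libraries were sought by Pearson's r of log2 levels relative to the median gene, as a description, since libraries share groups and composition. Clcn1 was followed most closely by Tmem233 (r = 0.98), Lingo3 (0.98) and Fam78a (0.98). Kcnj2 was nearest to Prdx1 (r = 0.92), Nubp2 (0.86) and Snap29 (0.83), and Atp1b1 to Ckmt2 (r = 0.94), the mitochondrial creatine kinase of muscle, Fhl1 (0.93) and Oxct1 (0.92). Atp1b2 was nearest to Pla2g7 (r = 0.93), Dopey2 (0.92) and Ctnnbip1 (0.91). Lower values were reached by Scn4a, with Man2a2 (r = 0.87), Hif1an (0.87) and Alkbh5 (0.84), by Kcnj11, with Pusl1 (0.83), Gpaa1 (0.82) and Slc2a4 (0.82), which encodes the insulin-responsive glucose transporter GLUT4, and by Fxyd1, with Sec61g (0.77), Zfp619 (0.75) and Dynlrb1 (0.73). Between members, r ran from 0.68 for Atp1b2 and Scn4a to -0.56 for Clcn1 and Kcnj2.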

How the data were processed

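Poly(A) RNA of mouse skeletal muscle was sequenced as single reads. The authors mapped reads to GRCm38 (mm10, per the submitters' processing notes) and deposited TPM per gene from the CLC Genomics Workbench; no source used here names its version, annotation, settings or use of strand. Columns with the results of the authors' own 4 comparisons (log2 fold change, FDR p-value) were not used. TPM carry no read counts, so depth, counting intervals and detection limits are unknown.

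Groups came from the labels. The 12111 genes that reached 0.5 TPM in 4 or more libraries entered the fit. Values were log2(TPM + 0.1), and limma 3.58.1 was run in R 4.3.3 (4 group means, 18 libraries, 14 residual degrees of freedom, trended eBayes, two-sided), with Benjamini-Hochberg adjustment over all genes and a threshold of 0.05. Folds on this scale understate changes of low genes. The same fit was run after shifting each library to a common median ("relative to the median gene"). The fit was tested on simulated data. Alternatives were quantile normalization, TPM without mitochondrial genes, filters, pseudocounts, a replicate block, only the groups compared, and leaving out each library. The labels do not say what a shared replicate number means. Over 17 same-numbered pairs, r of their deviations was -0.142 to 0.152, which cannot decide whether the numbers mark a pairing.

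Members and gene lists were chosen with earlier results of these data known. Named beyond the members were partner genes fixed by role (among them Atp1b3, Kcnj8, Kcnj12, Abcc8, Abcc9 and Scn4b) and up to 8 listed genes per comparison, by size, called on both scales. Some genes that these rules name are not reported here. Coordinates of exons came from GENCODE M21 (98.95% of identifiers matched) and promoters from RefSeq, GRCm38.p6.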

Additional observations from a re-analysis of the deposited data

Results flagged for a closer look

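Over 56 sets of values (7 genes, 4 groups, 2 scales), 3 had a library whose gap to its nearest neighbour was large for the range of its group; chance gives about 1 in 20. WT fasted replicate 4 was the lowest of its group for Clcn1 (14.0 TPM) and for Kcnj2 (13.8 TPM) as deposited. Relative to the median gene it was still the lowest for Clcn1, at 5.01 against 5.68 to 6.16 times in the others, by a gap not large for the range, and for Kcnj2 it was not the lowest. MKO fasted replicate 1 was the highest of its group for Kcnj11 relative to the median gene, at 81.9 TPM as deposited.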

How the results depend on the processing

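Fasting calls were the steadiest. Clcn1 in both genotypes, and Kcnj2 in MKO, kept direction and call under all alternatives run, and Atp1b2 in WT kept them except when only the groups compared entered the fit (limma adjusted p = 0.051), which left 1 member called in WT in place of 2. A fit of the MKO groups alone called Atp1b1 (-0.70, limma adjusted p = 0.0416), and Kcnj11 in WT was called relative to the median gene in 2 fits that left out a library, for 2 to 3 members called. Genotype calls in fasted mice moved most, with 5 members called as deposited, 1 relative to the median gene, 0 after quantile normalization, 1 (Kcnj2, lower) on TPM without mitochondrial genes, 2 from only the groups compared, and 2 to 5 when a library was left out. Relative to the median gene the 1 call (Atp1b2) became 0 with the replicate block, and 0 to 1 when a library was left out. In fed mice the 0 members called as deposited became 1 (Kcnj2) relative to the median gene, after quantile normalization and on TPM without mitochondrial genes, 3 from only the groups compared, and 0 to 4 when a library was left out. Scaling by construction removes the shared shift of the table; other causes were not tested.

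Shared replicate numbers are not known to pair animals, and in 3 of 17 same-numbered pairs the shared number was the best match. With the replicate block the counts as deposited of members called were 5 (fasted) and 0 (fed) for genotype, 2 for fasting in each genotype and 0 for the interaction, as without it.

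Changes of sign were values with no call, except for 4 members called as deposited in fasted mice. The turned values were small apart from those of Atp1b1. Without WT fasted replicate 4, the fasting change of Atp1b1 in WT relative to the median gene turned to -0.32. Relative to the median gene, the sign turned against the deposited scale in Atp1b2 for MKO against WT when fed (-0.036), Clcn1 for MKO against WT when fed (-0.043), Fxyd1 for MKO against WT when fed (-0.063) and Kcnj11 for MKO against WT when fed (-0.051). On TPM without mitochondrial genes it turned in Atp1b2 for MKO against WT when fed (-0.061), Clcn1 for the interaction (-0.052), Clcn1 for MKO against WT when fasted (-0.12), Clcn1 for MKO against WT when fed (-0.069), Fxyd1 for fasting in MKO (-0.034), Fxyd1 for MKO against WT when fasted (-0.057), Fxyd1 for MKO against WT when fed (-0.089), Kcnj11 for MKO against WT when fasted (-0.013), Kcnj11 for MKO against WT when fed (-0.076), Scn4a for the interaction (-0.059) and Scn4a for MKO against WT when fasted (-0.053). After quantile normalization it turned in Clcn1 for the interaction (-0.016), Fxyd1 for fasting in MKO (-0.062) and Scn4a for the interaction (-0.032), and with the replicate block in Kcnj2 for MKO against WT when fasted (0.019). Leaving out a library turned the sign, as deposited, in Atp1b1 for fasting in WT (-0.21 to 0.45), Atp1b1 for MKO against WT when fasted (-0.46 to 0.20), Clcn1 for the interaction (-0.064 to 0.17), Kcnj11 for fasting in MKO (-0.11 to 0.039), Kcnj2 for MKO against WT when fasted (-0.14 to 0.056), Scn4a for fasting in MKO (-0.074 to 0.019), Scn4a for fasting in WT (-0.21 to 0.046) and Scn4a for the interaction (-0.064 to 0.19); relative to the median gene it did so in Atp1b1 for fasting in WT (-0.32 to 0.47), Atp1b2 for MKO against WT when fed (-0.088 to 0.064), Clcn1 for the interaction (-0.0051 to 0.11), Clcn1 for MKO against WT when fasted (-0.048 to 0.054), Clcn1 for MKO against WT when fed (-0.10 to 0.0046), Fxyd1 for fasting in MKO (-0.019 to 0.065), Fxyd1 for MKO against WT when fasted (-0.013 to 0.13), Kcnj11 for MKO against WT when fed (-0.10 to 0.028), Scn4a for the interaction (-0.0043 to 0.10) and Scn4a for MKO against WT when fed (-0.018 to 0.081). The Atp1b1 share of beta subunit TPM ranged over 16.0% to 18.4% in fasted MKO, 21.6% to 35.6% in fasted WT, 21.02% to 27.3% in fed MKO and 17.2% to 22.1% in fed WT. Precision is limited by 4 or 5 libraries a group, and counting error cannot be separated from it in TPM.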
